A study of Mus musculus with 30 samples.

Results

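Untreated IDG-SW3 cells on day 7 of differentiation were compared with the same cells on day 3. Each day had 3 libraries, so the comparison used 6 of the 30 libraries in the series, chosen by the sample labels alone. IDG-SW3 is a mouse bone cell line that carries a temperature-sensitive SV40 large T antigen under an interferon-responsive promoter. Both groups had been expanded at 33 °C in 50 U/mL interferon-gamma on collagen-coated plastic. They were moved to 37 °C, without interferon-gamma, 2 days after plating, and the medium then held 50 ug/mL ascorbic acid and 4 mM beta-glycerophosphate. Neither group received a compound or a vehicle, and both come from 1 line. The labels number 3 replicates on each day and do not say whether they were separate cultures. The p-values therefore measure the spread between libraries, which need not be that between cultures. The spread between libraries was taken within each day over all untreated days of the series, not from days 3 and 7 alone. The question was what the first days after that switch changed in the transcriptome.

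Adherent osteoblasts sense their attachment through actin fibres. The coactivators YAP and TAZ, which act with TEAD factors, and the MRTFs, which act with SRF, carry that signal to genes such as *Ctgf* and *Cyr61*. Interferon-gamma signals to a class of GTPases and, through the coactivator CIITA, to the class II antigen presentation genes. Large T antigen binds the p53 and retinoblastoma proteins, and p53 in turn controls genes of arrest and stress such as *Cdkn1a* and *Mdm2*. T antigen was not analysed here. Osteoblasts are known for type I collagen, alkaline phosphatase and, later, mineral-binding proteins such as osteocalcin, and osteocytes for *Dmp1*, *Phex* and *Sost*.

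Levels are RPKM (reads scaled to transcript length and library size), and changes are day 7 minus day 3 on log2(RPKM + 0.5) after each library was centred on its own median. They carry the standard error and adjusted p of limma, fitted over the 18 untreated libraries. Ribosomal RNA rows took 71.6% to 80.1% of the RPKM sum in the 6 libraries, and 8551 to 8953 gene symbols reached 1 RPKM in each. Total read numbers could not be recovered from the values, so the depth is unknown. Libraries of 1 day correlated at 0.965 to 0.985 (Pearson, log scale) and libraries of different days at 0.895 to 0.925. The labels call the cells osteocytic, but at both days *Dmp1*, *Phex* and *Sost*, the genes that define osteocytes, were at or near 0. *Dmp1* was at 0.117, 0.056 and 0.09 RPKM on day 3 and at 0.051, 0.089 and 0 on day 7, *Phex* was at most 0.094 RPKM, and *Sost* was listed at 0 in all 6. The 18 genes of the osteocyte list in the files summed to 231 to 293 RPKM on day 3 and 355 to 443 RPKM on day 7. Of its 9 genes tested, 4 were higher (44.4%) and 2 lower (22.2%), beside 20.1% and 15.0% of all genes. Endothelial markers summed to at most 0.211 RPKM and skeletal muscle markers to at most 0.792 RPKM in any of the 6 libraries. The macrophage genes *Emr1*, *Tyrobp* and *Fcer1g* were listed at 0 throughout.

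Of 9933 genes tested, 1996 (20.1%) were higher and 1487 (15.0%) lower at day 7, together 35.1%. All 3 day 7 libraries lay above all 3 day 3 libraries for 29.6% of the genes and below them for 21.0%. The falls were the larger changes: 81 genes fell by more than 4-fold and 23 rose by more than 4-fold. The median gene changed by 0.11. That shift was 0.23 in the values as listed, 0.05 after quantile normalization and 0.00 when each library was scaled to its non-ribosomal sum, and the changes below should be read against it. The run number in the deposited name of each library was taken as its sequencing run, which the labels do not give. Within a first sequencing run, which held replicate 1 of both days, 3480 of the 3483 called genes moved in the direction of the whole comparison. Within a second run, which held day 3 replicates 2 and 3 and day 7 replicate 2, all 3483 did, although both runs also enter the comparison itself. Day 7 replicate 3 came from another run, which held no day 3 library.

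**Figure D1:**
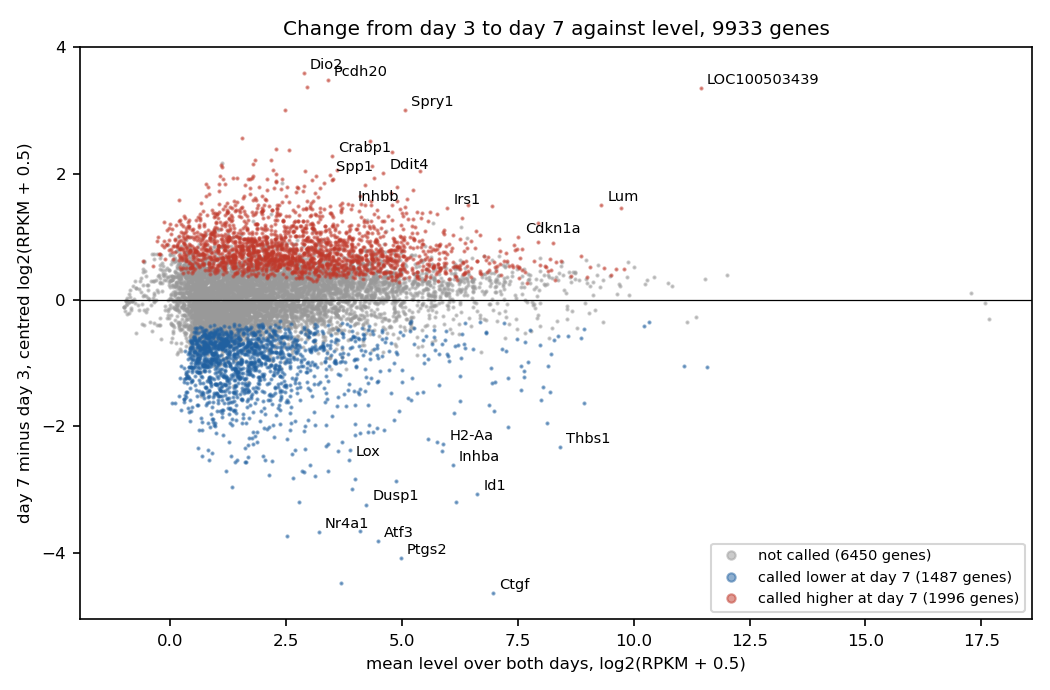
Change of each of the 9933 tested genes (y axis, day 7 minus day 3, centred log2(RPKM + 0.5)) against its mean level over both days (x axis, log2 scale), with called genes in blue (1487 lower) and red (1996 higher). *Ctgf* and *Ptgs2* lie among the lowest and *Dio2*, *Pcdh20* and *LOC100503439* among the highest.

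The change also followed transcript composition. Over 9274 genes with a sequence, it correlated with GC content (Spearman's rho = 0.20, across genes, which are not independent) and inversely with length (rho = −0.17). The median change ran from −0.09 in the fifth of genes with the lowest GC to 0.27 in the highest. The correlation with GC was 0.19 within the first run and 0.18 within the second, and between 2 day 3 libraries of different runs it was 0.15. A correction for GC gave 1515 higher and 1574 lower genes, a split of the calls that differs from the main one. The part of composition in single results was not tested beyond that correction.

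Genes of the mechanical and serum response were mostly lower at day 7. Of 23 tested targets of YAP/TEAD and MRTF/SRF, 17 fell and 1 rose, with a median change of −0.98 beside 0.11 for all genes. The shares were 73.9% lower and 4.35% higher, beside 15.0% and 20.1% of all genes. *Ctgf*, a matricellular growth factor gene, stood at 211, 254 and 248 RPKM on day 3 and at 10.3, 10.7 and 8.64 RPKM on day 7. Its day 7 libraries were tightly grouped far under every day 3 library (log2 change −4.64 ± 0.18, limma adjusted p = 1.26e-10), the lowest change of all genes tested. In bulk RNA, fewer cells that express a gene and less RNA per cell cannot be told apart. *Thbs1* (thrombospondin 1), one of the most abundant members, went from 684, 508 and 493 to 139, 108 and 113 RPKM (−2.32 ± 0.19). The related *Cyr61* was less changed, from 514, 406 and 384 to 148, 109.9 and 107 RPKM (−1.95 ± 0.26). In both genes the groups were well separated, and day 3 replicate 1 was the highest library.

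Adhesion and signalling members fell as well. *F3*, the tissue factor gene, changed from 25.2, 28.2 and 24.7 to 2.84, 3.35 and 3.17 RPKM (−2.99 ± 0.18, adjusted p = 9.68e-09). *Ankrd1*, a cardiac-type ankyrin repeat gene, fell by 2.70 ± 0.21, the LIM gene *Fhl1* by 2.82 ± 0.32, and vinculin (*Vcl*), which links integrins to actin, by 2.03 ± 0.14 on the log2 scale. *Itga5*, the fibronectin receptor subunit, changed by −1.34 ± 0.17, *Zyx* (zyxin) by −1.0 ± 0.17 and *Amotl2*, a YAP regulator, by −0.98 ± 0.17. The exception was *Axl*, a receptor tyrosine kinase, which rose from 9.6, 12.1 and 12.8 to 18.7, 21.5 and 24.3 RPKM (0.76 ± 0.18, adjusted p = 0.00363).

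The 250 bases before the RefSeq start of these genes (GRCm38.p6) were read for 2 motifs: the TEAD core GGAATG on either strand, and the CArG box of SRF, which reads the same way on both strands. Of 20 members of the mechanical list found in the RefSeq promoter table, 10 (50%) held the TEAD core and 5 (25%) a CArG box. Over all 27025 promoters the shares were 14.4% and 1.62%. Among all called genes in the table, the TEAD core was in 13.6% of the 1092 that fell and 12.3% of the 1492 that rose, and the CArG box in 2.56% and 1.01%. The list was chosen as known targets of these factors, and a match is a run of letters, not a bound site. *Ankrd1* and *Vcl* are shown because they fell and hold the motifs, the TEAD core (GGAATG) and, in *Vcl*, the CArG box being in capitals. The TEAD core also lies before *Axl*, the 1 member called higher, and *F3*, which fell, holds neither motif. The *Ankrd1* window is chr19:36119845-36120094 on the minus strand and the *Vcl* window chr14:20929148-20929397 on the plus strand, both 5′ to 3′.
Ankrd1: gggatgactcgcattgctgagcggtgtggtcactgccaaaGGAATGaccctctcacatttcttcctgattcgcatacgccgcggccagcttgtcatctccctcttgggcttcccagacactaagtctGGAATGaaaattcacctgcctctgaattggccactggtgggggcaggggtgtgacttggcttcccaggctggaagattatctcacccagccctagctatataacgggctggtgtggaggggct
Vcl: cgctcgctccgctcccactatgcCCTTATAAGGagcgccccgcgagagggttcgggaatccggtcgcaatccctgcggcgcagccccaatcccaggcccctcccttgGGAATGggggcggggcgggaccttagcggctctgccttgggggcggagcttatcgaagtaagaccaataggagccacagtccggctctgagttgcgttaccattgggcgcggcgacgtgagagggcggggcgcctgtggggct

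The contractile genes fell with them: 7 of 9 tested were lower (77.8%, beside 15.0% of all genes) and none higher (median −1.31). *Acta2*, smooth muscle actin, went from 37.6, 48.5 and 44.4 to 11.7, 11.4 and 13.6 RPKM (−1.90 ± 0.19, adjusted p = 1.71e-06). Calponin (*Cnn1*) fell by 2.47 ± 0.25, tropomyosin 2 (*Tpm2*) by 1.74 ± 0.24, leiomodin (*Lmod1*) by 1.50 ± 0.23 and caldesmon (*Cald1*) by 1.31 ± 0.16. *Tagln* (transgelin), the most abundant of the list on day 3, changed least among the called members (−0.91 ± 0.25). Its call was lost without centring (−0.80, adjusted p = 0.0593) and without day 3 replicate 1 (−0.76, adjusted p = 0.0514). With any 1 of the day 3 libraries left out, 7 members were tested, because 2 no longer passed the filter. Of these 7, 4 were lower without replicate 1 and 5 without replicate 2 or 3. The TEAD core was in 5 of 9 contractile promoters (55.6%).

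Immediate-early genes, which cells switch on within minutes of a stimulus, had the lowest median of any list of at least 5 tested genes. Of 25 tested, 20 fell (80%, beside 15.0% of all genes) and none rose (median −1.49). With any 1 of the day 3 libraries left out, 22 were tested and 16 or 17 fell, because the others no longer passed the filter. *Atf3*, a stress-induced transcription factor gene, went from 43.7, 38.3 and 40.6 RPKM to 3.12, 2.06 and 2.96 RPKM (−3.81 ± 0.24, adjusted p = 2e-08). *Nr4a1*, an orphan nuclear receptor gene, went from 17.1, 17 and 15.5 to 0.9, 1.17 and 0.775 RPKM (−3.68 ± 0.17). For both genes the 3 day 7 libraries were low and close together. The MAP kinase phosphatase gene *Dusp1* went from 30.6, 33.6 and 35 to 3.92, 3.42 and 2.78 RPKM (−3.24 ± 0.17, adjusted p = 2.33e-09).

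Among the AP-1 genes the falls were uneven. *Fosb* changed by −2.49 ± 0.22, *Fosl2* by −1.97 ± 0.19, *Junb* by −1.75 ± 0.20, *Fos* by −1.04 ± 0.21 and *Jund* by −0.99 ± 0.14, whereas *Jun* changed by 0.30 and was not called. With the replicate block over the 6 libraries *Jun* was called higher (0.28, adjusted p = 0.0117), the 1 rise of the list in that fit. *Jun* and *Jund* were the most abundant of them on day 7, at 154, 133 and 155 RPKM and at 141, 151 and 154 RPKM. Other members that fell were *Klf6* (−2.05 ± 0.18), the mRNA-decay gene *Zfp36* (−1.67 ± 0.19), *Egr2* (−1.69 ± 0.22) and *Myc* (−1.49 ± 0.16). The cyclic AMP response element TGACGTCA, the same on both strands, was in 3 of 21 promoters of the list (14.3%) against 1.77% of all, 3.2% of the tested genes and 4.49% of the genes that fell, and the CArG box also in 3. The *Dusp1* window (chr17:26508473-26508722, minus strand) is shown with that element in capitals. The *F3* window (chr3:121723287-121723536, plus strand) has a pair of AP-1 motifs TGANTCA in capitals, a motif in 7.82% of all promoters. Its share was 5.02% of the tested genes, 5.13% of those that fell and 4.42% of those that rose. The motif was in 0 of 21 immediate-early promoters and in 2 of 20 (10%) of the mechanical list, to which *F3* belongs.
Dusp1: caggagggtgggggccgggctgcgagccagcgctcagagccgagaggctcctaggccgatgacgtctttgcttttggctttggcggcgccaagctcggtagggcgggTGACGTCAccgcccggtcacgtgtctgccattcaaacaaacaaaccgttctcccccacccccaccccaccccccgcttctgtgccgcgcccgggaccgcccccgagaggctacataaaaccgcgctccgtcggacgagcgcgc
F3: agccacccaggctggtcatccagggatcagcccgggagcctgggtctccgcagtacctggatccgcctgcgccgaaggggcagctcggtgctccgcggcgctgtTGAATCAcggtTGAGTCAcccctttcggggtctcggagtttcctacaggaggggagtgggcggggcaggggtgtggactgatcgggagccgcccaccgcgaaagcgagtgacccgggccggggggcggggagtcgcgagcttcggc

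**Figure D2:**
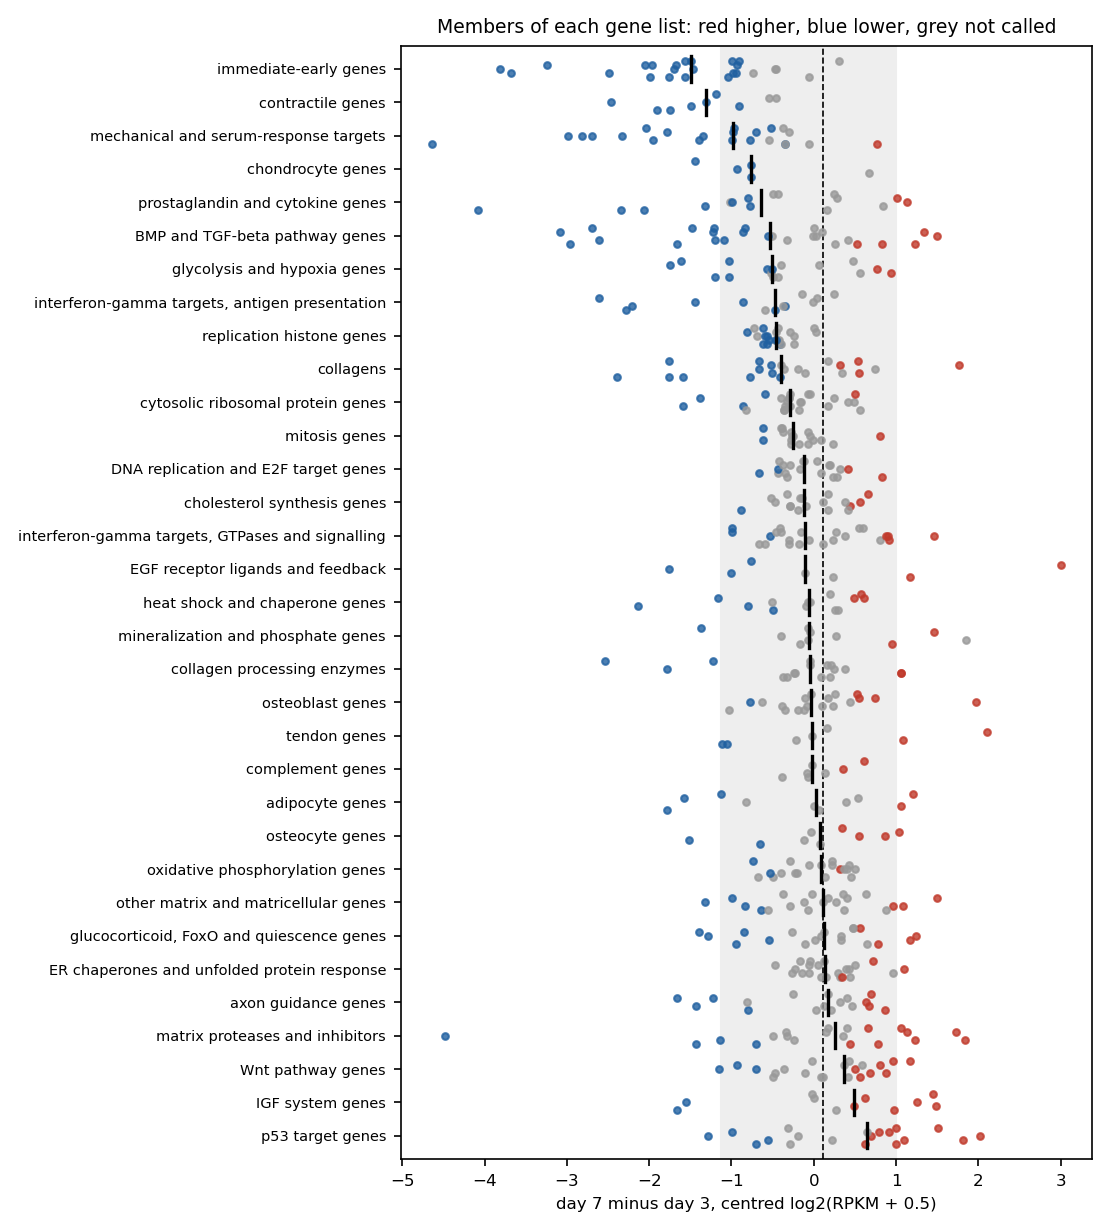
Change of each tested member (x axis, day 7 minus day 3, centred log2(RPKM + 0.5)) in 33 gene lists with at least 5 tested genes (y axis). Red members were called higher, blue lower and grey not called; the short bar is the list median, the dashed line the median of all genes (0.11) and the grey band the 5th to 95th percentile of all genes (−1.13 to 1.00). Immediate-early, contractile and mechanical genes have the lowest medians and p53 targets the highest.

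Of 16 tested prostaglandin and cytokine genes, 7 fell, 2 rose and 7 were not called (median −0.64). The shares were 43.8% lower and 12.5% higher, beside 15.0% and 20.1% of all genes. *Ptgs2*, the inducible cyclooxygenase of prostaglandin synthesis, went from 51.5, 62.6 and 62.1 to 3.07, 3.32 and 3.44 RPKM (−4.08 ± 0.18, adjusted p = 4.43e-10). The constitutive cyclooxygenase gene *Ptgs1* fell by 1.32 ± 0.24. *Ptges*, the terminal prostaglandin E synthase, moved the other way, from 3.35, 3.49 and 2.45 to 8.21, 7.39 and 8.28 RPKM (1.13 ± 0.22, adjusted p = 0.000965). *Il6* was at 1.94, 2.47 and 1.57 RPKM on day 3 and at 0, 0 and 0.085 on day 7. Its change was −2.34 ± 0.20 with the pseudocount of 0.5 and −4.20 with one of 0.1. Of these 6 libraries, only those of day 3 reached the 1 RPKM of the filter for *Il6*. With any 1 of the day 3 libraries left out, 15 members of the list were tested and 5 or 6 fell. *Tnfaip3*, an inhibitor of NF-kappaB, changed by −2.06 ± 0.23.

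The BMP and TGF-beta pathway was lower as a list, while its share of rises was near that of all genes. Of 26 tested genes, 13 fell (50%) and 5 rose (19.2%), beside 15.0% and 20.1% of all genes. The median was −0.53, and 3 rose without day 3 replicate 3. With any 1 of the day 3 libraries left out, 25 were tested and 10 to 12 fell. The BMP target *Id1*, an inhibitor of differentiation factors, stood at 130.3, 191 and 203 RPKM on day 3 and at 17.4, 23.5 and 24.5 RPKM on day 7 (−3.08 ± 0.21, adjusted p = 4.1e-08). Its relatives *Id2* (−2.70 ± 0.26), *Id3* (−1.66 ± 0.16) and *Id4* (−1.20 ± 0.24) fell too. *Id3* stayed at 59.4, 52.5 and 65.2 RPKM, while *Id2* was at 0.266 RPKM or less in every day 7 library.

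TGF-beta-induced *Tgfbi* changed by −2.96 ± 0.19 and the ligand gene *Tgfb2* by −1.78 ± 0.32. The feedback inhibitor *Smad7* changed by −1.23 ± 0.29 and the receptor gene *Tgfbr1* by −1.09 ± 0.24. The 2 activin subunit genes went in opposite directions. *Inhba* (activin beta A) fell from 97.9, 127 and 121 to 16.5, 20.4 and 23.4 RPKM (−2.61 ± 0.17), while *Inhbb* (activin beta B) rose from 6.47, 6.8 and 7.59 to 21.9, 20.9 and 23.9 RPKM (1.50 ± 0.21, adjusted p = 5.04e-05). On day 7 the libraries of both subunits therefore overlapped in level, where on day 3 they had been far apart. The latent TGF-beta binding protein genes were split in the same way, with *Ltbp1* at −1.48 ± 0.34 and *Ltbp2* at 1.23 ± 0.16.

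Of the interferon-gamma targets, the class II antigen presentation genes fell, and GTPase and signalling genes were called at shares near those of all genes. The difference between these lists was not tested. In the antigen presentation list 7 of 13 tested genes were lower (53.8%, beside 15.0% of all genes) and none higher (median −0.47). *H2-Aa*, a class II chain, went from 89, 100.4 and 99.9 to 21.8, 18.4 and 23.4 RPKM (−2.28 ± 0.21, adjusted p = 9.47e-07). *H2-Ab1* (−2.21 ± 0.23), *H2-Eb1* (−1.44 ± 0.34) and the invariant chain gene *Cd74* (−2.61 ± 0.24) fell with it, and *Nlrc5*, the class I transactivator, changed by −0.85 ± 0.17. For *H2-Eb1* the change was −0.77 in the first run, where day 3 replicate 1 stood at 14.7 RPKM, and −1.52 in the second. The class I light chain gene *B2m* was at 71.1, 60.4 and 59.8 RPKM on day 3 and at 73.4, 50.7 and 64.8 on day 7, so that the days overlapped (−0.14 ± 0.21, adjusted p = 0.638).

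Among 24 tested GTPase and signalling targets, 4 were higher, 3 lower and 17 not called (median −0.10). The shares were 16.7% higher and 12.5% lower, beside 20.1% and 15.0% of all genes. The GTPase gene *Iigp1* was at 177, 163 and 179 RPKM on day 3 and at 141, 110.4 and 121 RPKM on day 7, and the days did not overlap, but the call was not made (−0.60 ± 0.34, limma adjusted p = 0.188). The gene passed in the 3 fits restricted to these 6 libraries (limma adjusted p from 0.0012 to 0.0133), and with the replicate block in that fit 9 members of the list were higher and 10 lower. *Gbp2* fell (−1.0 ± 0.18). *Usp18*, which removes the ubiquitin-like ISG15, rose from 3.51, 3.3 and 3.23 to 12.5, 10.9 and 9.59 RPKM (1.46 ± 0.30, adjusted p = 0.00122), and *Irf9*, an interferon regulatory factor gene, rose by 0.88 ± 0.17. The interferon-stimulated response element (GAAA, any 2 bases, GAAA), searched on both strands, was in 16 of 23 promoters of this list (69.6%), in 1 of 11 of the antigen presentation list (9.09%) and in 3.46% of all promoters. Levels of genes with near-identical copies, such as the class I and GTPase families, depend on how shared reads were counted.

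**Figure D3:**
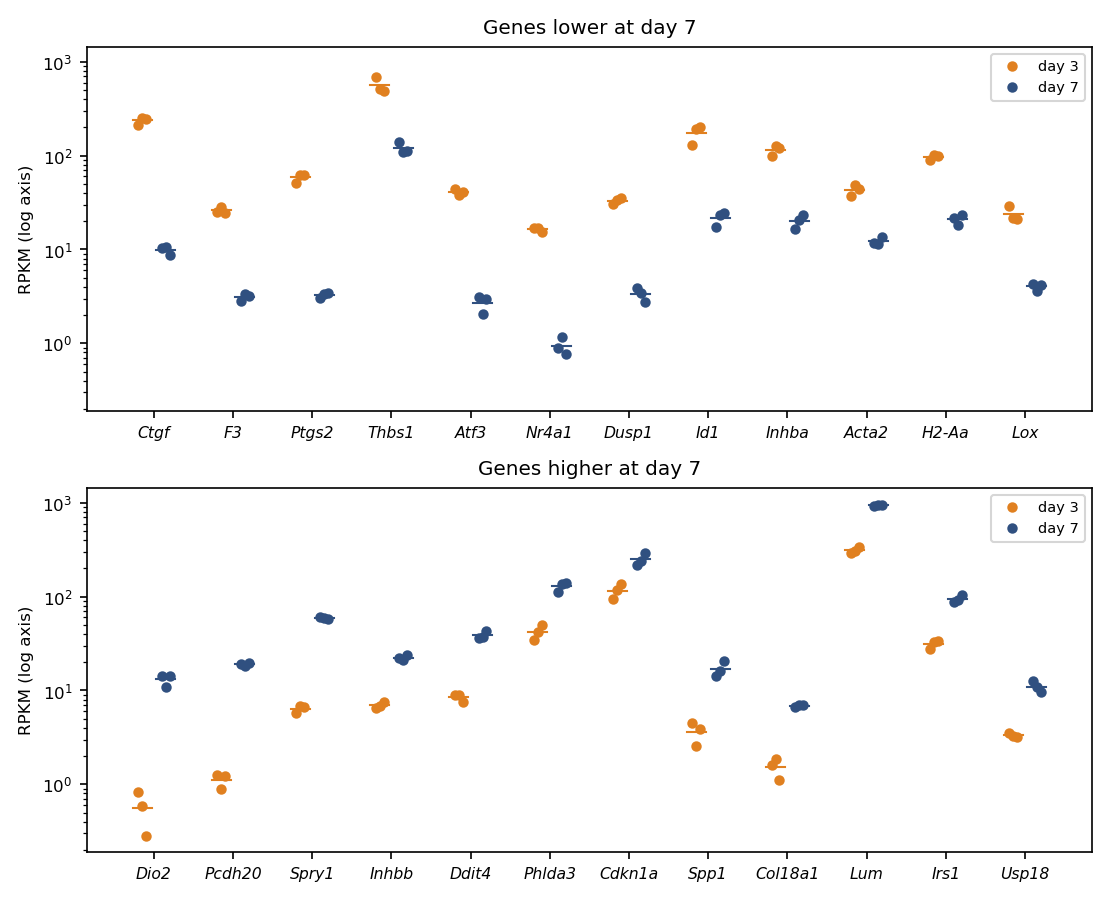
RPKM (y axis, log scale) of 12 genes that were lower and 12 that were higher at day 7, one point per library with the 3 day 3 libraries in orange and the 3 day 7 libraries in blue, and the bar at the mean. The days do not overlap for any of the 24 genes; *Ctgf* sits at 211 to 254 RPKM and then at 8.64 to 10.7 RPKM.

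Cell cycle genes were mostly not called, as were most of all genes tested. Of the mitosis genes 5.56% were higher and 11.1% lower, and of the replication and E2F genes 10% and 10%. Over all genes these shares were 20.1% and 15.0%. Of 18 tested mitosis genes, 2 were lower and 1 higher (median −0.26), with 1 lower when any library but day 3 replicate 3 was left out. Of 20 DNA replication and E2F target genes 2 were lower and 2 higher (median −0.12), and leaving out any one library took at least one of these counts to 1. *Mki67*, a marker of cycling cells, was at 35.9, 28.1 and 27.1 RPKM on day 3 and at 29.3, 23.3 and 28.2 RPKM on day 7, overlapping ranges (−0.28 ± 0.19, adjusted p = 0.278). *Top2a*, which untangles replicated DNA, changed by −0.28 ± 0.14 (adjusted p = 0.153) and the replication helicase gene *Mcm6* by −0.12 ± 0.17 (adjusted p = 0.633). With the replicate block fitted to the 6 libraries alone, *Mki67* (adjusted p = 0.0253) and *Top2a* (adjusted p = 0.0211) passed, and 6 mitosis genes were lower. The entry cyclin gene *Ccne1* rose from 9.54, 12.8 and 13 to 20.4, 23.5 and 25.1 RPKM (0.83 ± 0.12), and the mitotic kinase gene *Aurka* by 0.81 ± 0.17.

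Replication histones gave 9 lower and no higher of 22 tested (median −0.46). The count was 5 without day 3 replicate 2 or day 7 replicate 3 and 0 without centring. It was 12 with the replicate block over 18 libraries and 20 with the block over the 6 libraries, so the count depends on the scale and the fit. *Hist1h1c*, a linker histone gene, went from 356, 385 and 402 to 278, 271 and 286 RPKM (−0.56 ± 0.11), and its call too was lost without centring (−0.45, adjusted p = 0.143). Histone genes have near-identical copies, and their reads could be shared among them.

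Targets of p53 had the highest median of the lists with at least 5 tested genes. Of 19 tested, 10 rose and 4 fell (median 0.65). These were 52.6% and 21.1% of the list, beside 20.1% and 15.0% of all genes. *Cdkn1a*, the p21 inhibitor of cyclin-dependent kinases, went from 93.9, 117 and 137 to 217, 242 and 289 RPKM (1.00 ± 0.17, adjusted p = 0.000234). *Mdm2*, the ubiquitin ligase of p53, went from 44.8, 65.8 and 64.9 to 124.97, 134 and 142 RPKM (1.09 ± 0.23). Both were higher within each sequencing run, with changes of 1.10 and 0.88 for *Cdkn1a* and 1.37 and 0.97 for *Mdm2* in the first and second run. The growth inhibitor *Phlda3* (1.51 ± 0.21), the mTOR inhibitor *Ddit4* (2.01 ± 0.17), *Sesn2* (1.81 ± 0.48), *Zmat3* (0.80 ± 0.21) and the nuclease gene *Aen* (0.99 ± 0.15) rose as well.

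*Ddit4* stood at 8.96, 8.98 and 7.49 RPKM on day 3 and at 36, 37 and 43.1 RPKM on day 7. *Sesn2* was more variable, with day 7 replicate 1 at 16.8 RPKM and the others at 8.44. *Plk3* (−1.28 ± 0.26), *Sesn1* (−0.70 ± 0.18) and *Btg2* (−0.99 ± 0.13), which is also in the immediate-early list, fell. With any one of the day 3 libraries left out, 18 members were tested and 2 fell.

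Single bone matrix genes changed in both directions at day 7. Of the tested osteoblast genes 21.1% were higher, near the 20.1% of all genes, and 5.26% lower, beside 15.0%. Of 19 tested osteoblast genes, 4 were higher and 1 lower (median −0.04), and the count of falls was 3 without day 7 replicate 1 and 0 without any other library but day 3 replicate 3. *Spp1* (osteopontin), a mineral-binding phosphoprotein, rose from 4.49, 2.59 and 3.89 to 14.3, 16 and 20.8 RPKM (1.98 ± 0.23, adjusted p = 1.01e-05). *Cdh11*, osteoblast cadherin, rose by 0.74 ± 0.15. *Bglap* (osteocalcin) was at 2.61, 4.42 and 3.15 RPKM on day 3 and at 3.76, 3.12 and 3.74 RPKM on day 7 (−0.04 ± 0.33, adjusted p = 0.942). *Ibsp* (bone sialoprotein) was at 0.697 RPKM or less in all 6 libraries (−0.08 ± 0.34, adjusted p = 0.878). *Alpl*, alkaline phosphatase, changed by −0.39 ± 0.20 (adjusted p = 0.15) and passed without day 7 replicate 1 (−0.57, adjusted p = 0.0498), and *Runx2* lay under the filter at 0.284 to 0.45 RPKM.

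*Col1a1*, the type I collagen alpha 1 chain, was lower, at 132, 111 and 95.1 RPKM and then 80.8, 64.6 and 66.7 RPKM (−0.78 ± 0.27, adjusted p = 0.0371). The call was lost without centring (−0.66, adjusted p = 0.0513) and with no filter (−0.66, adjusted p = 0.064), and it needed most libraries. Its adjusted p was 0.139 with day 3 replicate 1 left out and 0.0778 with day 3 replicate 2 left out. For day 7, it was 0.0969 with replicate 2 left out and 0.113 with replicate 3 left out, with changes between −0.63 and −0.80 over these 4 fits. The osteocyte and osteoclast-regulating gene *Tnfsf11* (RANKL) rose from 2.65, 2.41 and 3.15 to 6.02, 5.95 and 5.61 RPKM (0.87 ± 0.22, adjusted p = 0.00668). Connexin 43 (*Gja1*), the gap junction protein of bone cells, rose by 0.55 ± 0.13. *Mgp* (matrix Gla protein), an inhibitor of calcification, went from 325, 430.4 and 516 to 898, 1410.4 and 1503 RPKM (1.46 ± 0.21), and *Enpp1*, which makes pyrophosphate, rose by 0.96 ± 0.19. *Mgp* and *Enpp1* were the 2 called rises among 10 tested mineralization and phosphate genes, a share of 20% beside 20.1% of all genes. The receptor gene *Fgfr1* was the 1 fall (−1.37). Its call was lost when any library but day 7 replicate 2 was left out (−1.08 to −1.42, adjusted p from 0.0712 to 0.144). It was also lost with the rows of a symbol summed, with no filter and with sequencing run in the 18-library fit.

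Most called collagens fell. The share of falls was 47.6%, beside 15.0% of all genes, and that of rises 19%, beside 20.1%. Of 21 tested, 10 fell and 4 rose (median −0.40), with 4 falls without centring. With any 1 of the day 3 libraries left out, 19 were tested and 6 to 9 fell, the lowest count being without replicate 1. *Col12a1*, a fibril-associated collagen, went from 21.4, 19.6 and 18.7 to 3.87, 3.65 and 3.63 RPKM (−2.39 ± 0.14, adjusted p = 6.63e-09). *Col5a1* (−1.59 ± 0.26), the basement membrane chain *Col4a2* (−1.76 ± 0.20) and *Col27a1* (−1.75 ± 0.16) fell. *Col18a1*, the basement membrane collagen that holds endostatin, rose from 1.61, 1.87 and 1.11 to 6.61, 6.94 and 7.08 RPKM (1.77 ± 0.21). The crosslinking enzyme gene *Lox* went from 29.4, 21.7 and 21.3 to 4.32, 3.63 and 4.23 RPKM (−2.53 ± 0.22), and *Loxl3* of the same family rose by 1.06 ± 0.23. Of 17 collagen processing genes tested, 3 fell (17.6%) and 2 rose (11.8%). The prolyl hydroxylase subunit *P4ha3* changed by −1.78 ± 0.21.

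Among the small leucine-rich proteoglycans, which coat collagen fibrils, *Lum*, *Dcn* and *Kera* rose. The lists also held *Bgn*, *Fmod*, *Ogn*, *Aspn* and *Omd*, which are not described here, so no direction is given for the family. *Lum* (lumican) went from 289, 309 and 334 to 934, 956 and 952 RPKM (1.50 ± 0.12, adjusted p = 2.75e-07), *Dcn* (decorin) rose by 1.09 ± 0.16 and *Kera* (keratocan) by 2.11 ± 0.26 from at most 0.362 RPKM. The adhesion-modulating matrix genes *Tnc* (−1.32 ± 0.13), *Tnn* (−0.99 ± 0.17) and *Postn* (−0.83 ± 0.11) fell. Over the 21 other matrix genes tested, 3 were higher (14.3%) and 4 lower (19%), beside 20.1% and 15.0% of all genes. With the replicate block 5 were higher.

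Matrix proteases and their inhibitors gave 8 rises and 4 falls among 20 tested genes (median 0.26). The shares were 40% higher and 20% lower, beside 20.1% and 15.0% of all genes. With any 1 of the day 3 libraries left out, 19 were tested and 3 fell. *Plau* (urokinase), which activates plasminogen, went from 9.02, 10.6 and 9.26 to 5.67, 4 and 3.93 RPKM (−1.13 ± 0.30, limma adjusted p = 0.00824). Its days did not overlap, and the change was −0.73 in the first run and −1.26 in the second. The metalloproteinase genes *Mmp3* (1.84 ± 0.31) and *Mmp19* (1.72 ± 0.16) and the aggrecanase gene *Adamts4* (1.23 ± 0.18) rose, and *Adamts1* fell (−1.43 ± 0.14). The count of rises was 5 without day 3 replicate 3 or day 7 replicate 1.

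Receptors and adaptors of growth factor pathways changed in both directions. In the IGF system 6 of 11 tested genes rose (54.5%) and 2 fell (18.2%), beside 20.1% and 15.0% of all genes (median 0.49). The adaptor *Irs1* went from 27.8, 32.7 and 33.8 to 87.3, 91.2 and 104 RPKM (1.45 ± 0.11, adjusted p = 2.04e-07), while *Irs2* (−1.67 ± 0.21) and the receptor *Igf1r* (−1.55 ± 0.15) fell. With any one of the day 3 libraries left out these 2 no longer passed the filter and were not tested. The binding protein genes *Igfbp4* (1.48 ± 0.27), *Igfbp5* (1.25 ± 0.17) and *Igfbp3* (0.97 ± 0.27) rose. *Igfbp4* was uneven, with replicate 1 lowest on both days, at 39.7 and 132 RPKM. The MAP kinase feedback inhibitor *Spry1* went from 5.72, 6.89 and 6.64 to 60.2, 59.5 and 57.8 RPKM (3.00 ± 0.13, adjusted p = 4.43e-10), and *Spry4* rose by 1.17 ± 0.24. They were the 2 rises (28.6%) among 7 tested genes of EGF receptor ligands and feedback, of which 3 fell (42.9%). The EGF receptor inhibitor *Errfi1* fell (−1.76 ± 0.32), as did *Spred1* (−1.0 ± 0.16).

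Of 21 tested Wnt pathway genes 7 rose (33.3%) and 3 fell (14.3%), beside 20.1% and 15.0% of all genes (median 0.36). The receptors *Fzd2* (1.16 ± 0.13) and *Fzd1* (0.81 ± 0.14) and the agonist *Rspo3* (0.88 ± 0.23) were higher. *Wisp1* (−1.16 ± 0.24) and *Wisp2* (−0.93 ± 0.17), named as Wnt-induced but of the same matricellular family as *Ctgf*, were lower. The list's median relative to all genes ran from −0.04 to 0.37 over the 22 alternatives. It was below 0 only with the filter at 5 RPKM (14 genes tested) and near 0 (0.01) with the filter on the 6 libraries. The size of the list's median, and its sign relative to all genes, therefore depend on the genes kept. The median itself was 0.06 with the filter at 5 RPKM.

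The largest rises were in genes of varied function. *Dio2*, the deiodinase that activates thyroid hormone, went from 0.827, 0.583 and 0.283 to 14.2, 11 and 14.3 RPKM (3.59 ± 0.32, adjusted p = 5.72e-07). The other deiodinase tested, *Dio3*, which inactivates the hormone, rose less (0.58 ± 0.15), and its call was lost after GC correction (0.33, adjusted p = 0.11). The protocadherin gene *Pcdh20* went from 1.27, 0.891 and 1.22 to 19, 18.2 and 19.6 RPKM (3.47 ± 0.22). The unnamed locus *LOC100503439* went from 383, 491 and 507 to 4127, 5516 and 5701 RPKM (3.36 ± 0.15). *Sall2* (2.38 ± 0.11), a zinc finger factor gene, and *Angptl4* (2.22 ± 0.26), a lipase inhibitor gene, also rose. So did the adhesion gene *Flrt2* (2.35 ± 0.34), *Ccdc8* (2.38 ± 0.13) and *A830007P12Rik* (2.51 ± 0.21), named *Tor4a* in RefSeq. The *Dio2* window (chr12:90739039-90739288, minus strand) is shown because it holds 1 cyclic AMP response element and 1 TEAD core, in capitals, of the kinds also seen before genes that fell.
Dio2: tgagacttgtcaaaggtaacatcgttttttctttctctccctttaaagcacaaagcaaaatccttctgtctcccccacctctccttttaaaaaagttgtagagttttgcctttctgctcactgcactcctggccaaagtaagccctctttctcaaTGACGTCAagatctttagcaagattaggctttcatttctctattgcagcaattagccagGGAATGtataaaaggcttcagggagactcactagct

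The nuclear noncoding RNA *Neat1* went from 90.0, 138 and 154 to 10.8, 14.9 and 18.1 RPKM (−3.19 ± 0.27, adjusted p = 4.56e-07), and its neighbour *Malat1* from 2214, 3105 and 3166 to 1069, 1484 and 2006 RPKM (−1.04 ± 0.23). *Glis1*, a zinc finger factor gene, changed by −3.19 ± 0.21. Some symbols have several rows in the files, and the row with the highest mean over all days was used. For *Trmt2a* the rows changed places: the row used was at 0, 5.71 and 0 RPKM on day 3, when another stood at 7.29, 0 and 7.36, so its 3.37 ± 1.06 is 0.73 (adjusted p = 0.016) when rows are summed. Its call was also lost without day 3 replicate 1 (2.79, adjusted p = 0.0944), day 3 replicate 3 (2.72, adjusted p = 0.0974) and day 7 replicate 1 (3.22, adjusted p = 0.0574). *Enah*, an actin regulator, is −3.73 ± 0.32 on 1 of 4 rows and −2.56 on their sum, and *Pdlim5*, which binds actin, −3.66 ± 0.32 and −2.86. *Pcdh10* (3.01 ± 0.45) had 4 rows at 0.597 to 0.779 RPKM on day 3, and on day 7 the row used was above 0 and the other 3 were at 0; on the sum of its rows the change is 1.55 (adjusted p = 0.000863).

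**Figure D4:**
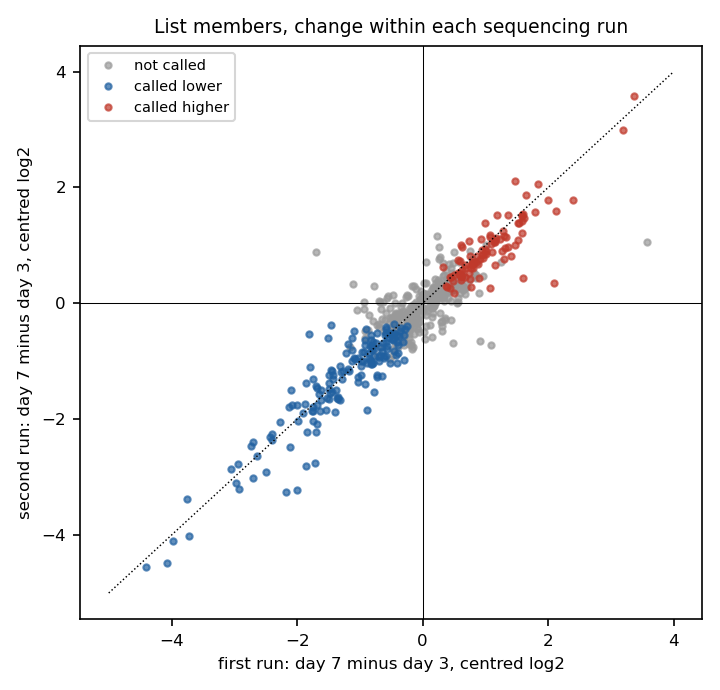
Change of the 546 tested list members within the first sequencing run (x axis, replicate 1 of each day) and within the second (y axis, day 7 replicate 2 against day 3 replicates 2 and 3), centred log2 units, with the dotted line where both are equal. All 252 called members have the same sign in both runs, which share no library with each other but are part of the whole comparison.

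Of 14 tested heat shock and chaperone genes 3 rose (21.4%) and 4 fell (28.6%), with a median of −0.06. All shares of rises and falls given from here on stand beside 20.1% and 15.0% of all genes. *Hspa1b*, the inducible HSP70 gene, went from 23.5, 24.7 and 27.1 to 4.85, 6.15 and 6.48 RPKM (−2.14 ± 0.13), although reads of its near-identical partner *Hspa1a* may be shared with it. *Hspa1a* itself changed by −0.50 ± 0.16, a call that was lost without centring (−0.38, adjusted p = 0.255) and with no filter (adjusted p = 0.171), and that needed replicate 3 of both days (adjusted p = 0.0652 with that of day 3 left out and 0.0755 with that of day 7 left out). The constitutive *Hsp90ab1* rose by 0.62 ± 0.11. Of 16 glycolysis and hypoxia genes 7 fell (43.8%) and 2 rose (12.5%), with a median of −0.50. The list gave 4 falls and 1 rise without day 3 replicate 3, and 4 rises with the replicate block. With the filter at 5 RPKM the glycolysis and hypoxia median was 0.28, with 2 higher and 2 lower of 7 tested, so its sign depends on the genes kept. *Vegfa* fell by 1.61 ± 0.17 and *Ndrg1* by 1.74 ± 0.26. Oxidative phosphorylation gave 1 rise (5.26%) and 2 falls (10.5%) of 19 tested. It gave 3 rises with the block and none without day 3 replicates 1 or 2 or day 7 replicates 2 or 3. Cholesterol synthesis gave 3 rises (16.7%) and 1 fall (5.56%) of 18, with 1 rise without day 3 replicate 3 or day 7 replicate 1. The unfolded protein response gave 3 rises (13.6%) and no fall of 22. The count of rises ran from 1 to 10 over the alternatives. It was 7 with the block and 1 without day 3 replicates 1 or 3 or day 7 replicates 2 or 3. Glucocorticoid, FoxO and quiescence genes gave 4 rises (21.1%) and 5 falls (26.3%) of 19. The rises were 8 with the block and 2 without any one of the day 3 libraries or day 7 replicate 3. The falls of that list were 2 without day 3 replicate 1 and 3 without day 3 replicates 2 or 3. *Foxo3* rose (1.25 ± 0.11), and the clock gene *Per1* (−1.29 ± 0.20) and *Klf9* (−1.39 ± 0.23) fell.

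Markers of neighbouring lineages gave mixed values. Of 16 chondrocyte genes in the files 5 passed the filter and 4 of these (80%) fell, among them lubricin (*Prg4*, −1.45 ± 0.19). The list summed to 14.1 to 20.8 RPKM on day 3 and 9.12 to 10.9 RPKM on day 7, with *Matn1* and *Col9a1* at 0. *Pparg*, the adipocyte master regulator, went from 4.89, 5.14 and 4.35 to 1.22, 1.01 and 1.28 RPKM (−1.78 ± 0.24). Of 10 tested adipocyte genes 3 fell (30%) and 2 rose (20%). With the block 4 rose, and 1 rose without day 3 replicate 1 or day 7 replicates 2 or 3. The adipocyte list summed to 155 to 284 and then 132 to 187 RPKM, with *Cd36*, *Cidec*, *Lep* and *Ebf2* at 0. Tendon genes summed to 101 to 106 RPKM on day 3 and 127 to 155 RPKM on day 7, with *Mkx* and *Thbs4* at 0. The macrophage and osteoclast list summed to 34.8 to 35.2 and then 61.0 to 65.7 RPKM, most of it *Ctsk* (cathepsin K), which rose by 1.07 ± 0.12. The part of any such cells in the results was not tested. Of the remaining lists, 4 cytosolic ribosomal protein genes were lower (16%) and 1 higher (4%) of 25 tested, with 3 higher with the block. Axon guidance genes gave 4 rises and 4 falls of 17 (23.5% each), with 2 rises without day 3 replicate 2. Osteocyte genes gave 1 fall in place of 2 without day 3 replicate 1 or day 7 replicate 2. Tendon genes gave 2 rises and 2 falls of 7 (28.6% each), and 1 fall without day 3 replicates 2 or 3 or day 7 replicate 3. Complement genes gave 2 rises of 7 (28.6%), and at most 1 without any one library.

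Most changes were kept or carried further at the next sampling. Of the 1487 genes that fell, 594 had gone beyond their day 7 level by day 14, 777 were nearer day 7 than day 3, 111 were nearer day 3, and 5 had returned to it or passed it. Of the 1996 that rose, these counts were 991, 791, 166 and 48. At day 35, 77 of the falls and 192 of the rises had returned to or passed the day 3 level. These positions use the same day 3 and day 7 libraries as the calls and are a description. *Ctgf* (4.81 ± 1.83 RPKM at day 14, SD, n = 3) and *H2-Aa* (3.59 ± 1.05) stood lower still, and *Dio2* was at 76 ± 7.32. *Usp18* was at 6.56 ± 2.58 RPKM at day 14 and 0.689 ± 0.245 at day 35, under its day 3 level. *Mki67*, not called at day 7, was at 9.16 ± 0.701 RPKM at day 14, and *Bglap* at 1.37 ± 0.239 before reaching 146 ± 49.7 at day 35.

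**Figure D5:**
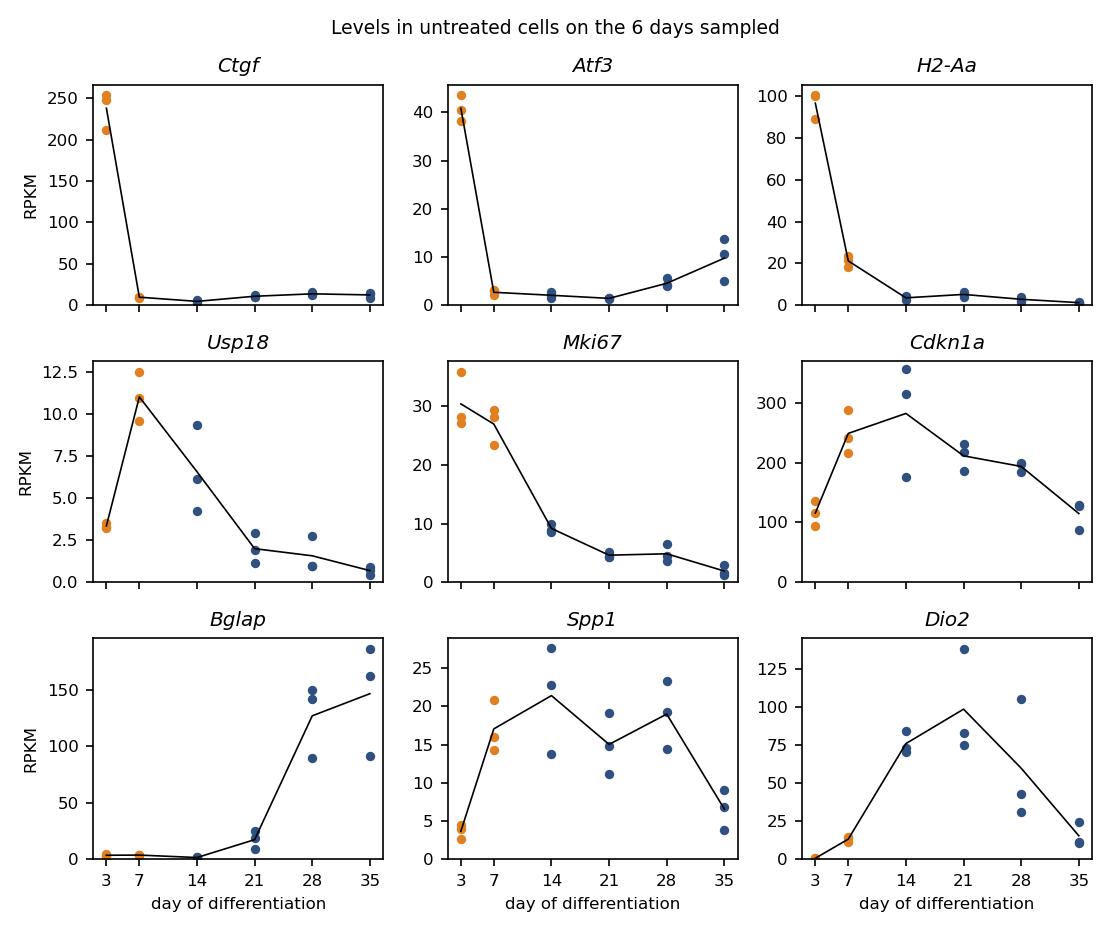
RPKM (y axis, linear, from 0) of 9 genes on the 6 days sampled (x axis), one point per library, with days 3 and 7 in orange, later days in blue and a line through the means. *Ctgf*, *Atf3* and *H2-Aa* drop between the first 2 days, *Usp18* is highest on day 7, and *Mki67* drops and *Bglap* rises only on later days.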

How the data were processed

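Directional libraries of rRNA-depleted total RNA were compared, 3 from day 3 and 3 from day 7. Per the submitters' processing notes, reads were handled with TopHat and mm9, with no version given. The deposited values are RPKM, 1 table per library with 30901 rows, and the counting method is not given in the sources used here.

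For each of 25520 symbols the row with the highest mean was kept, and log2(RPKM + 0.5) was centred on each library's median. Genes at 1 RPKM or more in at least 3 of the 18 untreated libraries were tested (9933). A gene at this level only in the 3 libraries of 1 day passed through that day alone. Its direction is then in part set by the filter. The change was fitted with limma 3.58.1 in R 4.3.3 (trended variance, 12 residual degrees of freedom, Benjamini-Hochberg adjustment, called at an adjusted p under 0.05), with all 18 libraries giving the spread. Fold changes of low genes are understated on this scale. No read depth could be recovered: 29.8% to 32.2% of low values lay within 0.1 of a whole read, against 20% by chance. On simulated data for this comparison (9780 genes), 72% of 2-fold and 93.8% of 4-fold changes were recovered. Of the calls 7.91% were false, above the threshold of 0.05. Only 100 genes were changed 2-fold and 97 changed 4-fold there, against 3483 called in the real data, so these shares need not hold for the real comparison.

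Deviations of same-numbered libraries correlated at 0.54, 0.21 and 0.28. The main fit did not pair the samples, and a block by replicate number was fitted only as an alternative. Only number 1, from 1 run on both days, stood apart: numbers 2 and 3 correlated about as well across numbers (0.27 and 0.21). Members and gene lists were chosen with earlier results of these data known. Named genes were the 12 largest rises and falls among called genes with at least 5 RPKM on the higher day, no overlap and the same direction in both runs, plus up to 6 members of each list with the lowest adjusted p, and a set of bone, cell cycle and interferon genes; a few others serve to show a list's range. Some genes that meet this rule are not reported here. Lists are described by counts and medians, with no set test. Promoter sequences and motifs are from RefSeq on GRCm38.p6, and no coordinate was converted. Alternatives were other pseudocounts, scalings, filters, fits, left-out libraries, run, replicate block and GC correction.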

Additional observations from a re-analysis of the deposited data

How the results depend on the processing

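The number of called genes stayed within 1.5 times of 3483 in every alternative except the filter at 5 RPKM (1494 called, 836 higher and 658 lower, of 4375 tested). Without centring, 977 genes were lower. Leaving out 1 library gave 2576 to 3049 called genes, 1532 to 1702 higher and 1025 to 1347 lower. With the replicate block over the 18 libraries 4602 genes were called (2790 higher, 1812 lower), and over the 6 libraries 4947. The 18-library block ended the call of none of the 144 called genes named here, and pseudocounts of 0.1 and 1 ended none either. None of the 144 changed direction under an alternative that gave it a value. With any 1 of the day 3 libraries left out, 134 of the 144 had a value. *Bglap* and *Ibsp*, neither called, changed sign without centring (0.077 and 0.034) and with no filter (0.076 and 0.033). With 1 library left out, *Bglap* ran from −0.16 to 0.13, the latter for day 3 replicate 2 and 0.023 for day 7 replicate 2. *Ibsp* ran from −0.23 to 0.036, the latter for day 3 replicate 3 and 0.021 for day 7 replicate 1. Rescaling without rRNA rows gave 1364 higher and 1499 lower genes. The GC correction, alone or with the block, and the block over 6 libraries were chosen after seeing the data. Precision at low levels is limited by a depth that is unknown. The causes of these shifts were not tested.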

Other observations

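A few changes lie outside the lists above and were chosen after their values were seen. *Crabp1*, a retinoic acid-binding protein gene, rose and went from 2.56, 2.36 and 4.27 to 11.6, 19.2 and 24.6 RPKM (log2 change 2.27 ± 0.31). *Agtr2*, an angiotensin receptor gene, went from a mean of 0.293 to 4.55 RPKM (2.56, limma adjusted p = 1.96e-05), and the endothelin receptor gene *Ednra* from 0.834 to 4.98 RPKM (1.94). *Sod3*, the extracellular superoxide dismutase gene, went from 14.8 to 67.6 RPKM (2.04).

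Several transcription factor genes fell. *Nfil3*, a leucine zipper repressor gene, went from a mean of 50.2 to 7.14 RPKM (−2.86), *Csrnp1* from 26.9 to 3.66 RPKM (−2.83) and the aryl hydrocarbon receptor gene *Ahr* from 17.5 to 2.54 RPKM (−2.70). *Arid5b* was the most abundant of these 4, at a mean of 95.6 RPKM on day 3 and 19.4 RPKM on day 7 (−2.39).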
